A study of Mus musculus with 15 samples.

Results

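The genes described are the TNF receptors and TNF ligands of regulatory T cells (Tregs), leaving out Tnfrsf25. They are the entries of the count table whose symbol starts with Tnfrsf or Tnfsf, other than Tnfrsf25, together with Tnf, Lta, Ltb, Ltbr, Cd27, Cd70, Cd40, Cd40lg, Fas, Fasl, Ngfr, Eda2r and Edar. That gave 44 of 24015 genes, 26 receptors and 18 ligands. RNA was sequenced from CD45+CD3+CD4+YFP+ cells of C57BL/6 mice that all carry Foxp3 cre-eyfp, in which Foxp3, the gene of the Treg-defining transcription factor, also drives Cre and a yellow fluorescent protein. The 5 groups of 3 libraries were Foxp3 cre-eyfp Rora fl/fl (cKO) and Foxp3 cre-eyfp (WT) Tregs of MC903-treated skin, cKO and WT Tregs of untreated skin, and WT Tregs of skin-draining lymph nodes (LN). Rora, a nuclear receptor gene, is floxed in the cKO mice alone, and Cre is driven by Foxp3. MC903, a vitamin D analogue, inflames skin and was put on the ears in ethanol every other day for 4 applications. Treated skin was ears alone and untreated skin was dorsal skin with ears, so the site and the MC903 treatment cannot be told apart. The skin went through a 90 minute digestion and no digestion is stated for LN, so tissue and digestion cannot be told apart either. The ages of the mice, and whether each library is 1 animal or a pool, are not given in the sources used here.

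TNF ligands are mostly trimeric membrane proteins that can be shed, and they bind receptors on neighbouring cells. Receptors such as OX40 (Tnfrsf4), GITR (Tnfrsf18), 4-1BB (Tnfrsf9), TNFR2 (Tnfrsf1b), CD27 and CD30 (Tnfrsf8) recruit TRAF adaptors and turn on NF-kappa-B. On Tregs they act as costimulatory receptors, and those other than CD27 are known to be high on activated cells in tissues. Receptors with a death domain, such as Fas, TNFR1 (Tnfrsf1a) and DR5 (Tnfrsf10b), can instead recruit FADD and caspase-8.

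Each library had 19.8 to 27.7 M counts in total (M, a mega prefix). Levels are given as CPM, a library's counts per M after TMM scaling. A gene was called higher or lower at an adjusted p under 0.05 in edgeR's quasi-likelihood test over all 13578 genes tested, and every log2 change carries its standard error (SE) with 3 libraries per group. Of the 44 members, 36 passed the filter on low counts, 21 receptors and 15 ligands. The filter keeps a gene that is high in only 1 group, so the tested members are not all members. The titles call the 3 libraries of a group biological replicates without saying that they are separate animals, so p-values measure only the spread between these libraries. The 6 Treg markers, Foxp3 among them, were above 0 in every library. They summed to 5328 to 6580 CPM in WT untreated skin and 5424 to 7217 CPM in WT MC903-treated skin, against 2852 to 3080 CPM in WT LN. The part of this difference in the skin results was not tested. Rora read 472.7 to 632 CPM in cKO against 739 to 813 CPM in WT MC903-treated skin, and 822 to 1199 CPM in cKO against 1327 to 1510 CPM in WT untreated skin. Its averaged genotype change was -0.50 ± 0.10 (adjusted p = 0.0193), and whether the counted reads lie in the floxed part is not given in the sources used here. In LN it read 52.8 to 66.6 CPM.

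Transcripts of the receptor genes Tnfrsf4, Tnfrsf9, Tnfrsf18 and Tnfrsf1b were higher in skin Tregs than in LN Tregs, and 8 of the 15 tested ligand genes were lower. In WT untreated skin against WT LN, 10 of the 36 members were called higher and 13 lower, beside 28.8% of all genes called higher and 28.8% called lower. The 21 receptors split into 9 higher and 5 lower, with a median log2 change of 0.53. The 15 ligands split into 1 higher and 8 lower, with a median of -0.94, where the median of all genes tested was 0.01. Groups without overlap were common. All WT untreated skin libraries lay above all WT LN libraries for 4083 of the 13578 genes tested, and below them for 4532. Among the 36 members these numbers were 10 and 15. In these bulk samples, fewer cells of a type and less RNA per cell cannot be told apart.

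Tnfrsf4, the gene of OX40, read 2924, 3971 and 2467 CPM in WT untreated skin, against 575, 544 and 642 CPM in WT LN, and rose by 2.41 ± 0.16 (adjusted p = 5.45e-09). Every skin library lay above every LN library. Tnfrsf18, the gene of GITR and the coding gene next to Tnfrsf4 in the RefSeq annotation, read 1735, 2435 and 1573 CPM in WT untreated skin, against 654, 648 and 467 CPM in WT LN (1.70 ± 0.17, adjusted p = 5.84e-07). Tnfrsf4 and Tnfrsf18 were both highest in the same WT untreated library, replicate 2. Tnfrsf9, the gene of 4-1BB, read 1421, 1352 and 1975 CPM in WT untreated skin, against 293, 306 and 307 CPM in WT LN (2.39 ± 0.17, adjusted p = 1.40e-08). Tnfrsf1b, which encodes the TNF receptor TNFR2, read 1730, 1008 and 1328 CPM in WT untreated skin, against 282, 269 and 360 CPM in WT LN (2.16 ± 0.20, adjusted p = 2.35e-07). None of these 4 receptor genes had overlapping groups. Cd27, a costimulatory receptor of resting and memory T cells, differed less, at 514, 599 and 499 CPM in WT untreated skin against 424, 426 and 264 CPM in WT LN (0.53 ± 0.17, adjusted p = 0.0141). Its call ended without WT untreated replicate 2 (0.44 ± 0.18, adjusted p = 0.0561).

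Of the members called higher, Tnfrsf12a and Tnfrsf10b had the largest rises. Tnfrsf12a, the gene of Fn14, the receptor of the injury cytokine TWEAK, read 73.7, 113 and 59.8 CPM in WT untreated skin, against 4.23, 4.60 and 2.29 CPM in WT LN (4.47 ± 0.28, adjusted p = 2.78e-09). Tnfrsf10b, the gene of the TRAIL receptor DR5, read 53.3, 46.8 and 49.1 CPM in WT untreated skin, against 3.34, 3.46 and 4.42 CPM in WT LN (3.73 ± 0.18, adjusted p = 1.40e-10). In both genes the groups stood far apart. Fas, the Fas ligand receptor, read 258, 248 and 269 CPM in WT untreated skin, against 123, 123 and 75.0 CPM in WT LN (1.27 ± 0.19, adjusted p = 4.04e-05). Tnfrsf1a, which encodes TNFR1, did not pass the test, with 44.2, 39.7 and 45.7 CPM in WT untreated skin against 44.4, 42.6 and 27.1 CPM in WT LN (0.18 ± 0.20, adjusted p = 0.440). Its groups overlapped.

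The genes of the BAFF receptors and of HVEM were lower in skin. Tnfrsf13c, the gene of the BAFF receptor, read 0.331, 0 and 0.646 CPM in WT untreated skin, against 10.2, 9.04 and 27.7 CPM in WT LN (-5.60 ± 0.98, adjusted p = 0.000154). Tnfrsf13b, the gene of TACI, another receptor of BAFF, read 4.59, 4.20 and 4.90 CPM in WT untreated skin, against 13.7, 15 and 16.9 CPM in WT LN (-1.73 ± 0.26, adjusted p = 3.09e-05). LN replicate 3, highest for both genes, also held the most B cell marker transcript. The 10 B cell markers summed to 8.51 to 13.4 CPM in WT untreated skin, with Ms4a1 and Pax5 among those at 0 there, and to 211 to 778 CPM in WT LN, where all 10 were above 0. Without LN replicate 3, Tnfrsf13c changed by -4.86 ± 1.06 (adjusted p = 0.00144) and Tnfrsf13b by -1.62 ± 0.28 (adjusted p = 0.000234). The part of B cell transcript in these 2 results was not tested. Cd40, a receptor best known on B cells and dendritic cells, read 1.80, 2.65 and 5.92 CPM in WT untreated skin, against 4.79, 4.63 and 9.98 CPM in WT LN, and was not called (-0.91 ± 0.70, adjusted p = 0.276). Tnfrsf14, the gene of HVEM, the receptor of LIGHT, read 1.47, 0.531 and 1.02 CPM in WT untreated skin, against 3.37, 3.62 and 4.46 CPM in WT LN (-1.92 ± 0.54, adjusted p = 0.0069).

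Tnfrsf26, Tnfrsf22 and Tnfrsf23 are neighbouring mouse genes, of which Tnfrsf22 and Tnfrsf23 encode TRAIL decoy receptors without a death domain. They are close in sequence, and how reads shared by such genes were counted is not given in the sources used here, so their separate values are uncertain. The 3 neighbours differed in direction between skin and LN. Tnfrsf23 read 7.61, 7.03 and 8.02 CPM in WT untreated skin, against 2.13, 2.16 and 3.17 CPM in WT LN (1.60 ± 0.24, adjusted p = 3.54e-05). Tnfrsf26 read 13.1, 18.0 and 19.9 CPM in WT untreated skin, against 47.3, 52.6 and 36.6 CPM in WT LN (-1.42 ± 0.30, adjusted p = 0.000808). Tnfrsf22 read 7.80, 2.25 and 6.19 CPM in WT untreated skin, against 10.5, 11.8 and 8.82 CPM in WT LN (-0.94 ± 0.38, adjusted p = 0.0437). The groups of none of the 3 overlapped, but the Tnfrsf22 call was unstable. It ended without WT untreated replicate 2 (-0.57 ± 0.32, adjusted p = 0.145) or replicate 3 (adjusted p = 0.0573), and without LN replicate 1 (adjusted p = 0.0819), replicate 2 (adjusted p = 0.113) or replicate 3 (adjusted p = 0.0535).

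**Figure D1:**
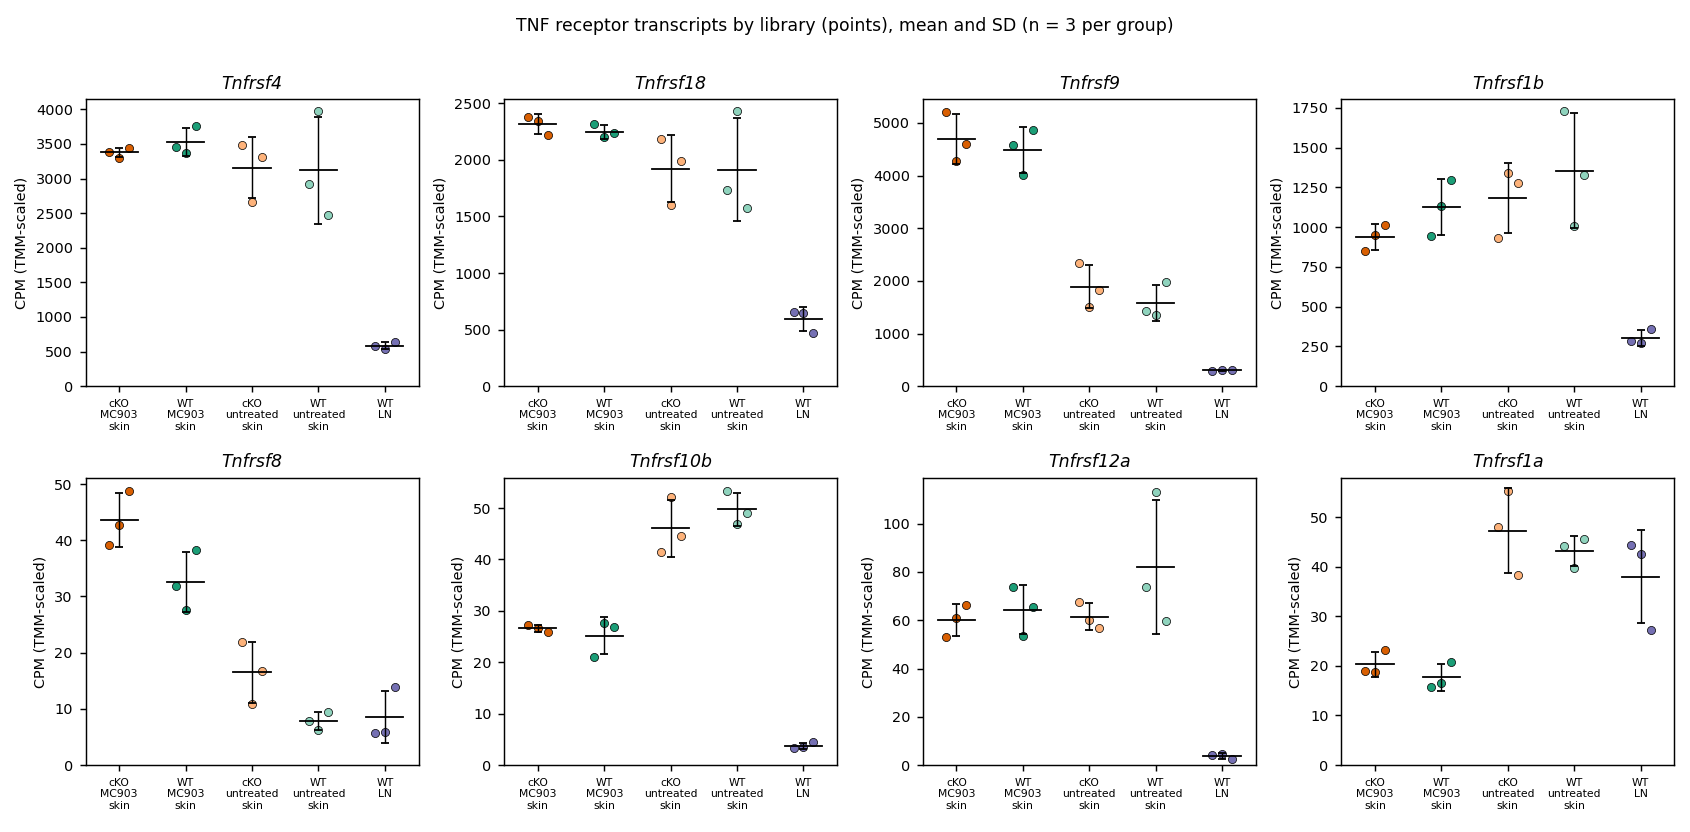
Levels of 8 TNF receptor transcripts in CPM (TMM-scaled) in each library, with points for libraries, a line for the mean and bars for the SD of 3 libraries per group. Tnfrsf4, Tnfrsf18, Tnfrsf9, Tnfrsf1b, Tnfrsf10b and Tnfrsf12a were higher in every skin library than in any LN library. Tnfrsf9 and Tnfrsf8 were higher in MC903-treated than in untreated skin, and Tnfrsf10b and Tnfrsf1a were lower.

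Among the ligands, Tnfsf9, which encodes the 4-1BB ligand, was the 1 called higher in skin. It read 44.2, 68.5 and 48.9 CPM in WT untreated skin, against 7.42, 7.71 and 10 CPM in WT LN (2.68 ± 0.18, adjusted p = 6.59e-09). The gene and its receptor Tnfrsf9 were thus both higher in skin Tregs. Tnf did not pass the test, with 64.0, 95.2 and 52.1 CPM in WT untreated skin against 52.4, 34.6 and 37.3 CPM in WT LN (0.77 ± 0.34, adjusted p = 0.0661). Its lowest skin library lay just below its highest LN library.

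The lymphotoxin genes were lower in skin. Lta, whose product forms the soluble lymphotoxin trimer and part of the membrane-bound one, read 14.9, 14.3 and 20.3 CPM in WT untreated skin, against 176, 169 and 158 CPM in WT LN (-3.34 ± 0.23, adjusted p = 6.53e-09). Ltb, which anchors lymphotoxin to the membrane, read 637, 746 and 613 CPM in WT untreated skin, against 1772, 1523 and 1055 CPM in WT LN (-1.12 ± 0.17, adjusted p = 5.26e-05). The groups of neither gene overlapped. In the RefSeq annotation Ltb, Tnf and Lta are adjacent coding genes, with Tnf between the other two. Ltbr, the gene of the receptor of membrane-bound lymphotoxin, usually expressed by stromal and myeloid cells, was near 0, at 0.378 to 1.28 CPM in WT untreated skin and 0 to 0.659 CPM in WT LN.

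The remaining ligands called lower in skin spanned a log2 change of -0.78 to -2.75. Tnfsf8, the CD30 ligand gene, read 17.5, 19.4 and 22.4 CPM in WT untreated skin, against 79.2, 70.3 and 59.6 CPM in WT LN (-1.82 ± 0.30, adjusted p = 8.94e-05). Tnfsf14, the gene of LIGHT, which binds HVEM and the lymphotoxin beta receptor, read 4.02, 3.14 and 4.74 CPM in WT untreated skin, against 12.3, 12.1 and 15.3 CPM in WT LN (-1.74 ± 0.34, adjusted p = 0.000386). In these 2 genes every skin library was below every LN library. Cd40lg, the CD40 ligand gene through which T cells act on B cells and dendritic cells, read 28.5, 32.6 and 35.1 CPM in WT untreated skin, against 60.1, 62.4 and 61.5 CPM in WT LN (-0.94 ± 0.16, adjusted p = 0.00015). Tnfsf11, the gene of RANK ligand, read 20.5, 24.6 and 29.9 CPM in WT untreated skin, against 42.4, 47.9 and 47.8 CPM in WT LN (-0.88 ± 0.23, adjusted p = 0.00382). Neither of these overlapped between groups. Tnfsf10, the gene of TRAIL, read 20.7, 16.8 and 20.1 CPM in WT untreated skin, against 27.3, 27.5 and 44.0 CPM in WT LN (-0.78 ± 0.20, adjusted p = 0.00357). Without LN replicate 3 its change was -0.49 ± 0.18 (adjusted p = 0.0340). Tnfsf13b, the gene of BAFF, was low, at 0.142, 0.929 and 0.754 CPM in WT untreated skin against 3.66, 4.19 and 4.49 CPM in WT LN (-2.75 ± 0.96, adjusted p = 0.0245). The Tnfsf13b call ended without WT untreated replicate 1 (adjusted p = 0.0736) and without LN replicate 1, 2 or 3 (adjusted p = 0.0505, 0.0597 and 0.0623).

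**Figure D2:**
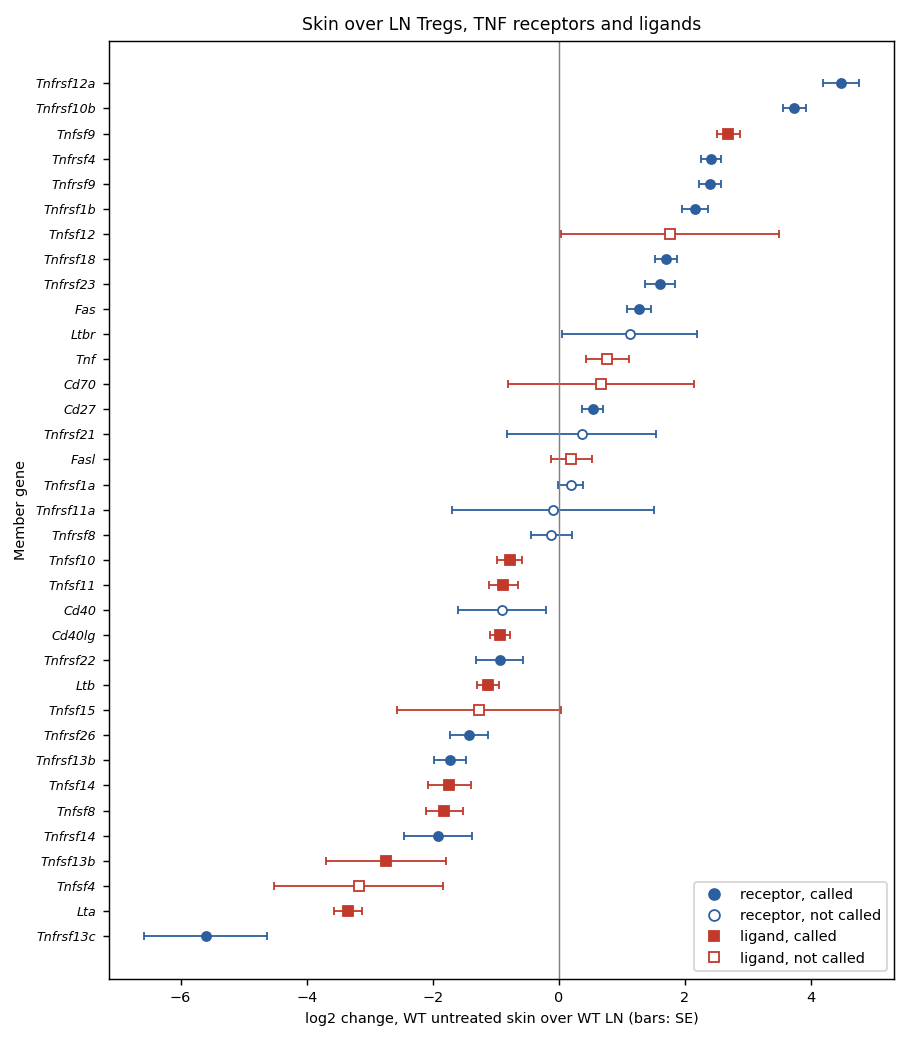
The log2 change of 35 tested members in WT untreated skin over WT LN, with SE bars, receptors as circles and ligands as squares, filled where called; Tnfrsf11b, at 0 in every LN library, is left out. The right side holds mostly receptors, with Tnfsf9 the 1 called ligand among them, and the left side most of the called ligands.

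The pairing of receptor and ligand differed between members. The genes of OX40 and GITR were called higher in skin, and their ligand genes read at most 2.46 CPM in any library, the Tnfsf4 level of cKO untreated replicate 1. Tnfsf4, the OX40 ligand gene, read 0.284, 0 and 0.323 CPM in WT untreated skin, against 2.41, 1.90 and 1.22 CPM in WT LN (-3.18 ± 1.34, adjusted p = 0.0536). Tnfsf18, the GITR ligand gene, was at 0 in 14 of 15 libraries and read 0.177 CPM in WT untreated replicate 2. Cd70, the CD27 ligand gene, read 0 to 1.32 CPM in WT untreated skin and 0.0634 to 0.817 CPM in WT LN. Tnfrsf11a, the gene of RANK, read 0 to 0.377 CPM in WT untreated skin and 0 to 0.502 CPM in WT LN, beside a called fall of its ligand gene Tnfsf11. Fasl, the Fas ligand gene, read 12.1, 8.53 and 15.9 CPM in WT untreated skin, against 11, 11.6 and 9.19 CPM in WT LN, and was not called (0.20 ± 0.32, adjusted p = 0.612) where Fas was. Tnfrsf8, the CD30 gene, read 7.90, 6.19 and 9.48 CPM in WT untreated skin, against 5.75, 5.90 and 13.9 CPM in WT LN, and was not called either (-0.12 ± 0.32, adjusted p = 0.765), beside the called fall of its ligand gene Tnfsf8. Without LN replicate 3 the Tnfrsf8 change was 0.45 ± 0.27 (adjusted p = 0.167).

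Levels of different genes can be set side by side once divided by transcript length. Per kb of the longest coding transcript, Ltb was the highest member in WT LN, at 1249.8 ± 314 CPM per kb (SD), with Tnfrsf4 at 570 ± 48.8 and Tnfrsf18 at 496 ± 89.2 CPM per kb after it. In WT untreated skin the order of level was Tnfrsf4 at 3029.5 ± 749, Tnfrsf18 at 1610.0 ± 385, Tnfrsf9 at 748 ± 162 and Ltb at 573 ± 61.1 CPM per kb. The ranges over libraries of the first 3 did not overlap in skin, with a lowest Tnfrsf4 value of 2395 CPM per kb above the highest Tnfrsf18 value of 2048. The ranges of Tnfrsf9 and Ltb just overlapped, with a lowest Tnfrsf9 value of 639 and a highest Ltb value of 643 CPM per kb. The 4 receptor genes Tnfrsf4, Tnfrsf9, Tnfrsf18 and Tnfrsf1b made up 79.4% to 81.6% of all member transcript per kb in WT untreated skin, against 37.3% to 46.4% in WT LN. Ltb alone made up 7.71% to 8.39% in WT untreated skin, against 33.6% to 43.2% in WT LN. Summed receptor transcript was 5620 to 7523 CPM per kb in WT untreated skin and 1541 to 1737 in WT LN, and summed ligand transcript was 677 to 816 CPM per kb in skin and 1165 to 1801 in LN.

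Of 40 genes that signal below TNF receptors (adaptors, kinases, NF-kappa-B subunits and their inhibitors), all were tested, and 25 were called higher and 9 lower in WT untreated skin than in WT LN, where 28.8% of all genes were called in each direction. Tnfaip3, the gene of the NF-kappa-B brake A20, rose by 4.41 ± 0.23 (adjusted p = 4.21e-10), at 974 to 1583 CPM in WT untreated skin against 57.2 to 71.2 CPM in WT LN. Traf1, an adaptor of TNFR2, 4-1BB and CD30, read 809 to 968 CPM in WT untreated skin against 183 to 236 CPM in WT LN (2.00 ± 0.14, adjusted p = 7.43e-09). Others did the opposite. Traf5, an adaptor of OX40 and CD27, read 18.3 to 24.1 CPM in WT untreated skin against 67.6 to 91.5 CPM in WT LN (-2.02 ± 0.19, adjusted p = 2.22e-07), and Ikbkg, the gene of NEMO, fell by 2.54 on the log2 scale (SE 0.16, adjusted p = 2.96e-09). Transcripts known to be induced by tissue digestion moved with the tissue. The 20 immediate early and heat shock genes, in which 17 were called higher and 1 lower, summed to 21452 to 30447 CPM in WT untreated skin and 4047 to 4263 CPM in WT LN. Keratinocyte markers summed to 306 to 662 CPM in WT untreated skin and 18.1 to 19.8 CPM in WT LN. The part of the digestion and cell type transcripts in the skin results was not tested.

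WT Tregs of MC903-treated skin, set against the same LN libraries, gave 10 members called higher and 13 lower, beside 26.5% and 24.5% of all genes. Receptors were called higher in 9 cases and lower in 4, and ligands higher in 1 and lower in 9. Called here and not in untreated skin were 4 members. Tnfrsf8 changed by 1.93 ± 0.32 (adjusted p = 0.000145), Tnf by -1.33 ± 0.35 (adjusted p = 0.00518), Tnfrsf1a by -1.10 ± 0.20 (adjusted p = 0.000299) and Fasl by -1.25 ± 0.33 (adjusted p = 0.00475) against LN. Conversely, Cd27 (0.14 ± 0.17, adjusted p = 0.52), Tnfsf8 (-0.20 ± 0.28, adjusted p = 0.585), Tnfrsf26 (-0.22 ± 0.29, adjusted p = 0.55) and Tnfrsf22 (-0.04 ± 0.37, adjusted p = 0.929) were not called against LN there. Both skin comparisons share the LN libraries. In the authors' deposited table of LN against skin, 34 members have an adjusted p that can be set beside the WT untreated skin fit. Of these, 22 were called in the same direction by both, 10 by neither and 2, Tnf (adjusted p = 0.0341 in the authors' deposited table) and Tnfsf4 (0.0283), by the authors alone.

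MC903-treated skin Tregs had more 4-1BB and CD30 transcript than untreated skin Tregs in both genotypes, and less Tnf, Tnfrsf1a and Tnfrsf10b transcript. In cKO skin, MC903 treatment went with 5 members called higher and 8 lower, beside 5.96% and 5.3% of all genes. In WT skin it went with 5 members called higher and 5 lower, beside 5.03% and 5.44% of all genes. Among the 21 receptors, 4 were called higher and 2 lower in each genotype. Among the 15 ligands, 1 was called higher and 6 lower in cKO skin, and 1 higher and 3 lower in WT skin. Treated libraries all lay above the untreated ones for 2358 of the 13578 genes tested in cKO and 2036 in WT. They all lay below for 2175 and 1794. Of the 36 members, 9 lay above and 11 below in cKO, and 6 above and 8 below in WT.

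Tnfrsf9 read 5201, 4270 and 4601 CPM in cKO MC903-treated skin, against 2331, 1511 and 1833 CPM in cKO untreated skin (1.31 ± 0.17, adjusted p = 0.00024). WT libraries held 4585, 4005 and 4866 CPM in MC903-treated skin, against 1421, 1352 and 1975 CPM in untreated skin (1.50 ± 0.17, adjusted p = 7.81e-05). Every treated library lay above every untreated one. Per kb this put Tnfrsf9 at 2121 ± 208 CPM per kb (SD) in WT MC903-treated skin, above Tnfrsf18 at 1892 ± 52.1 though with overlapping ranges, and below Tnfrsf4 at 3425 ± 199. Tnfrsf8, whose CD30 product shares TRAF adaptors with 4-1BB, read 39.2, 42.7 and 48.8 CPM in cKO MC903-treated skin, against 21.8, 10.9 and 16.7 CPM in cKO untreated skin (1.40 ± 0.32, adjusted p = 0.0114). The WT levels were 31.9, 27.7 and 38.2 CPM in MC903-treated skin, against 7.90, 6.19 and 9.48 CPM in untreated skin (2.05 ± 0.33, adjusted p = 0.00122). The treated libraries again stood above all untreated ones, though the cKO call ended without cKO untreated replicate 2 (1.18 ± 0.34, adjusted p = 0.061). By contrast Tnfrsf4 (0.10 ± 0.15 in cKO and 0.18 ± 0.15 in WT) and Tnfrsf18 (0.27 ± 0.17 in cKO and 0.23 ± 0.17 in WT) were not called, with adjusted p from 0.321 to 0.735.

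The promoters of the 2 costimulatory receptor genes that were called higher in both genotypes are shown to compare their motif content, from 250 bases before to 50 bases after an annotated start, RefSeq on GRCm38.p6. Capitals mark matches to the kappa-B consensus of NF-kappa-B, to the AP-1 motif TGANTCA and to AGGTCA, the core of ROR elements, searched on both strands; TGANTCA reads alike on both strands and none of the 3 motifs overlapped another in these windows. Tnfrsf9 has an upstream start with no match, and the window of its downstream start, chr4:150927749-150928048 on the plus strand, holds all 3. The Tnfrsf8 window is chr4:145315115-145315414 on the minus strand.
Tnfrsf9: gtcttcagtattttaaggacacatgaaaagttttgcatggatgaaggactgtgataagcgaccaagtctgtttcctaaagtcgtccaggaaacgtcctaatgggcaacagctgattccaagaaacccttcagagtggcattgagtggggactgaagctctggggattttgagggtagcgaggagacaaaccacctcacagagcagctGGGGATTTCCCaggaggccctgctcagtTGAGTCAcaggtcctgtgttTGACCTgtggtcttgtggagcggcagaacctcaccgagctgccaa
Tnfrsf8: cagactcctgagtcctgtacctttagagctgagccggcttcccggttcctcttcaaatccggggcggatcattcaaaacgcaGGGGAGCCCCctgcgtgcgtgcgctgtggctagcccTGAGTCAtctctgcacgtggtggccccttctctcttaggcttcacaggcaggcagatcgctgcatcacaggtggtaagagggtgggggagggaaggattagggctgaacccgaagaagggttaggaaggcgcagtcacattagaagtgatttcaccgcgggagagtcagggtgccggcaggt
Across 32851 promoter windows of this length, 4.5% held a kappa-B match, 7.8% TGANTCA and 16.3% AGGTCA. These shares count windows, while a member with several windows was counted as matched if any of them matched. Among the 33 members with a window, kappa-B was matched in 3 (Ltb, Tnfrsf8 and Tnfrsf9), TGANTCA in 6 (Fas, Tnfrsf8, Tnfrsf9, Tnfsf13, Tnfsf13b and Tnfsf14) and AGGTCA in 3 (Tnfrsf13b, Tnfrsf9 and Tnfsf10). A match is a run of letters in the window and does not show that a factor binds there.

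Of the neighbouring genes Tnfrsf26 and Tnfrsf23, both were called higher with MC903. Tnfrsf26 read 55.8, 61.3 and 68.8 CPM in cKO MC903-treated skin, against 23.2, 20.7 and 15.7 CPM in cKO untreated skin (1.64 ± 0.30, adjusted p = 0.00307). Its WT libraries read 50.6, 18.3 and 48.4 CPM in MC903-treated skin, against 13.1, 18.0 and 19.9 CPM in untreated skin (1.20 ± 0.30, adjusted p = 0.0184). In cKO the groups were apart, and in WT they overlapped through MC903-treated replicate 2, which read as low as the untreated libraries. The WT call of Tnfrsf26 ended without WT untreated replicate 1 or 2 (adjusted p = 0.0693 and 0.0515) or WT MC903-treated replicate 1 or 3 (adjusted p = 0.087 and 0.0759). Tnfrsf23 read 22.4, 22.2 and 23.2 CPM in cKO MC903-treated skin, against 13, 13.2 and 13.3 CPM in cKO untreated skin (0.78 ± 0.23, adjusted p = 0.0385). WT Tregs held 16.9, 9.88 and 16.0 CPM in MC903-treated skin, against 7.61, 7.03 and 8.02 CPM in untreated skin (0.92 ± 0.23, adjusted p = 0.0193). Its groups did not overlap in either genotype. The Tnfrsf23 call ended in cKO without any 1 of its 6 libraries (adjusted p = 0.0703 to 0.111), and in WT without untreated replicate 2 (0.0601) or MC903-treated replicate 1 or 3 (0.0896 and 0.0779).

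Both death-domain receptor genes called with MC903 were lower. Tnfrsf1a read 18.9, 18.8 and 23.3 CPM in cKO MC903-treated skin, against 48.1, 55.4 and 38.3 CPM in cKO untreated skin (-1.22 ± 0.20, adjusted p = 0.00171). The WT values were 15.8, 16.5 and 20.8 CPM in MC903-treated skin, against 44.2, 39.7 and 45.7 CPM in untreated skin (-1.28 ± 0.20, adjusted p = 0.00106). TNFR1 transcript was thus lower in each treated library than in any untreated one, while Tnfrsf1b, the gene of the other TNF receptor, was not called (-0.33 ± 0.19 in cKO, adjusted p = 0.286, and -0.27 ± 0.19 in WT, adjusted p = 0.416). Tnfrsf10b read 27.2, 26.6 and 25.9 CPM in cKO MC903-treated skin, against 41.5, 52.2 and 44.5 CPM in cKO untreated skin (-0.79 ± 0.16, adjusted p = 0.00553). Its levels in WT were 21.0, 27.6 and 26.9 CPM in MC903-treated skin, against 53.3, 46.8 and 49.1 CPM in untreated skin (-0.98 ± 0.16, adjusted p = 0.00142). DR5 transcript was apart in both genotypes, and even the treated libraries lay far above the 3.34 to 4.42 CPM of WT LN.

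Of the 3 ligands that edgeR called lower with MC903 in both genotypes, Tnf showed the largest fall. It read 17.1, 5.24 and 10.2 CPM in cKO MC903-treated skin, against 36.4, 47.9 and 55.4 CPM in cKO untreated skin (-2.10 ± 0.36, adjusted p = 0.00228). WT libraries read 21.3, 12.9 and 15.3 CPM in MC903-treated skin, against 64.0, 95.2 and 52.1 CPM in untreated skin (-2.09 ± 0.35, adjusted p = 0.00206). Every treated library was below every untreated one, and below every WT LN library. Lta read 8.04, 7.37 and 6.15 CPM in cKO MC903-treated skin, against 16.0, 11.5 and 13.2 CPM in cKO untreated skin (-0.91 ± 0.22, adjusted p = 0.014). In WT the levels were 5.72, 9.14 and 10.8 CPM in MC903-treated skin, against 14.9, 14.3 and 20.3 CPM in untreated skin (-0.95 ± 0.21, adjusted p = 0.0114). Its groups were apart in both genotypes, with the cKO call ending without cKO MC903-treated replicate 2 (adjusted p = 0.0511) or 3 (0.064), and the WT call with only the compared groups in the fit (0.105). Their neighbour Ltb was not called (0.38 ± 0.17 in cKO, adjusted p = 0.17, and 0.36 ± 0.17 in WT, adjusted p = 0.206).

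Fasl read 9.38, 10.6 and 10.1 CPM in cKO MC903-treated skin, against 28.8, 21.1 and 17 CPM in cKO untreated skin (-1.16 ± 0.32, adjusted p = 0.0304). In WT the values were 2.47, 4.16 and 6.72 CPM in MC903-treated skin, against 12.1, 8.53 and 15.9 CPM in untreated skin (-1.45 ± 0.33, adjusted p = 0.0111). Its treated libraries were below all untreated ones of their genotype, and the cKO call ended without cKO untreated replicate 1 or 2 or MC903-treated replicate 1, 2 or 3 (adjusted p = 0.0744 to 0.0934). The WT call ended with only the compared groups in the fit (adjusted p = 0.0852). A further 3 ligands were called lower in cKO and not in WT.

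Cd40lg read 55.9, 38.4 and 40.7 CPM in cKO MC903-treated skin, against 78.8, 70.4 and 68.5 CPM in cKO untreated skin (-0.69 ± 0.16, adjusted p = 0.0132), and -0.41 ± 0.16 in WT had an adjusted p of 0.123. Tnfsf11 read 25.8, 17.5 and 16.1 CPM in cKO MC903-treated skin, against 53.9, 51.3 and 35.0 CPM in cKO untreated skin (-1.24 ± 0.23, adjusted p = 0.00336), and -0.47 ± 0.23 in WT had an adjusted p of 0.21. Tnfsf14 read 0.908, 1.26 and 0.715 CPM in cKO MC903-treated skin, against 3.09, 2.59 and 1.91 CPM in cKO untreated skin (-1.39 ± 0.35, adjusted p = 0.0178), and -0.59 ± 0.33 in WT had an adjusted p of 0.291. The difference between the genotypes' MC903 effects was not called for any of the 3. The Cd40lg call ended without cKO MC903-treated replicate 2 (adjusted p = 0.0754) or 3 (0.0621), and the Tnfsf14 call without cKO untreated replicate 2 (0.0535) or cKO MC903-treated replicate 1 (0.059) or 3 (0.0752).

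Tnfsf8 was the 1 ligand called higher with MC903 in WT. In cKO it read 115, 70.3 and 56.0 CPM in MC903-treated skin, against 111, 59.4 and 88.4 CPM in untreated skin, and was not called (-0.11 ± 0.28, adjusted p = 0.859). The WT levels were 66.7, 77.0 and 38.7 CPM in MC903-treated skin, against 17.5, 19.4 and 22.4 CPM in untreated skin (1.62 ± 0.29, adjusted p = 0.00314). The cKO groups overlapped almost wholly and the WT groups were apart. Tnfsf13b, the 1 ligand called higher with MC903 in cKO (adjusted p = 0.00823), read 0.605, 1.26 and 0.286 CPM in cKO MC903-treated skin and 0 in all 3 cKO untreated libraries. It had 6 to 26 counts in the treated libraries. With only the compared groups in the fit, it did not pass the filter on low counts. Pooled over the treated libraries, Tnfsf13b read 0.711 CPM, 17.2-fold above a floor of 3 counts over the 3 untreated libraries. That ratio leaves out the spread of the treated libraries.

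**Figure D3:**
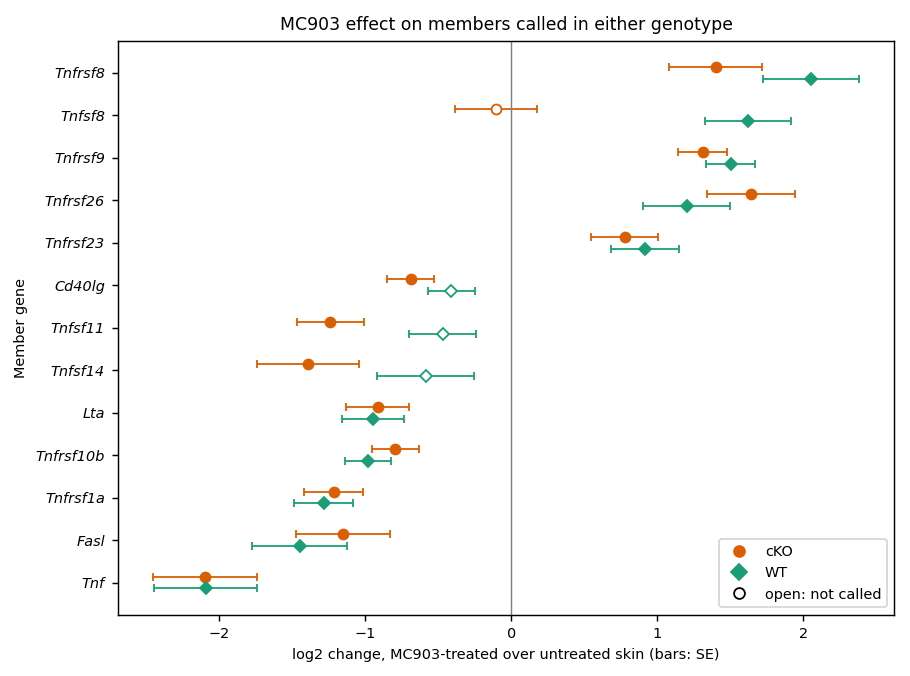
The log2 change of 13 members in MC903-treated over untreated skin, with SE bars, cKO as circles and WT as diamonds, filled where called; Tnfsf13b, at 0 in every cKO untreated library, is left out. Tnfrsf8, Tnfrsf9, Tnfrsf26 and Tnfrsf23 lie to the right in both genotypes, and Tnfsf8 at -0.11 in cKO and 1.62 in WT.

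Of the 40 signalling genes, 1 was called higher and 3 lower with MC903 in cKO, and 4 higher and 3 lower in WT. Of all genes, 5.96% were called higher and 5.3% lower in cKO, and 5.03% and 5.44% in WT. Traf5 was called higher in both (0.65 ± 0.18 in cKO, adjusted p = 0.0286, and 0.77 ± 0.18 in WT, adjusted p = 0.0138), and Tnfaip3 lower in both (-0.88 ± 0.20, adjusted p = 0.0124, and -1.01 ± 0.21, adjusted p = 0.00581). The immediate early and heat shock genes moved with MC903 as well. They summed to 12745 to 14451 CPM in cKO MC903-treated against 23584 to 29013 CPM in cKO untreated skin, and to 13039 to 14283 CPM in WT MC903-treated against 21452 to 30447 CPM in WT untreated skin. Of the 20, 14 were called lower in cKO and 15 in WT. Their part in the falls of Tnf, Lta and Fasl was not tested.

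Between genotypes nearly all calls were ligands, and Tnfsf8, Cd40lg and Tnfsf10 were called higher in cKO than in WT Tregs of untreated skin. In untreated skin 3 members were called higher in cKO than in WT and 1 lower, beside 0.398% and 0.405% of all genes. In MC903-treated skin 1 was called higher and 0 lower, beside 0.081% and 0.177% of all genes. With both treatments averaged, 5 were called higher and 1 lower, beside 0.884% and 0.862%. All of these were ligands except Tnfrsf23. Of the 21 receptors, edgeR called 0 in either treatment alone, where 5 in untreated and 3 in MC903-treated skin had an unadjusted p under 0.05, and DESeq2 also called 0. Of the 13578 genes tested, 1560 in untreated and 917 in MC903-treated skin had such an unadjusted p in edgeR. The 0 members lower in MC903-treated skin compare with 1 at an unadjusted p under 0.05 and 1 by DESeq2, Tnfsf14 in both cases. In untreated skin the cKO libraries all lay above the WT ones for 1001 of the 13578 genes tested, and below for 845. In MC903-treated skin these numbers were 1060 and 1112. Of the 36 members, 10 lay above and 3 below in untreated skin, and 8 above and 1 below in MC903-treated skin.

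Tnfsf8 read 111, 59.4 and 88.4 CPM in cKO untreated skin, against 17.5, 19.4 and 22.4 CPM in WT untreated skin (2.13 ± 0.30, adjusted p = 0.00212). All cKO libraries lay above all WT ones. The WT LN libraries read 79.2, 70.3 and 59.6 CPM, below cKO replicates 1 and 3. In MC903-treated skin it read 115, 70.3 and 56.0 CPM in cKO, against 66.7, 77.0 and 38.7 CPM in WT, groups that overlapped (0.40 ± 0.28, adjusted p = 0.913). The averaged change was 1.27 ± 0.20 (adjusted p = 0.00293). The call in untreated skin and the averaged one held in each alternative analysis, with adjusted p up to 0.0188 and 0.0147. Its receptor gene Tnfrsf8 read 21.8, 10.9 and 16.7 CPM in cKO untreated skin, against 7.90, 6.19 and 9.48 CPM in WT untreated skin, apart but not called (1.07 ± 0.32, adjusted p = 0.184).

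Cd40lg read 78.8, 70.4 and 68.5 CPM in cKO untreated skin, against 28.5, 32.6 and 35.1 CPM in WT untreated skin (1.18 ± 0.16, adjusted p = 0.00185). In MC903-treated skin it read 55.9, 38.4 and 40.7 CPM in cKO, against 20.2, 27.5 and 24.6 CPM in WT (0.90 ± 0.16, adjusted p = 0.0233). The groups were apart under both treatments, and the cKO untreated libraries lay above the 60.1 to 62.4 CPM of WT LN. The averaged change was 1.04 ± 0.12 (adjusted p = 8.41e-05), which like the untreated one held in every alternative. The call in MC903-treated skin ended without cKO replicate 1 (0.71 ± 0.16, adjusted p = 0.131) or 3 (adjusted p = 0.0516) or WT replicate 1 (0.151) or 3 (0.0808). It also ended with only the compared groups in the fit (adjusted p = 0.13).

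Tnfsf10, whose TRAIL product binds DR5, read 39.5, 30.9 and 39.6 CPM in cKO untreated skin, against 20.7, 16.8 and 20.1 CPM in WT untreated skin (0.93 ± 0.20, adjusted p = 0.0376). In MC903-treated skin it read 30.4, 25.3 and 24.6 CPM in cKO, against 18.4, 15.3 and 15.7 CPM in WT (0.70 ± 0.20, adjusted p = 0.265). The groups were apart under both treatments, and the averaged change was 0.82 ± 0.14 (adjusted p = 0.00478). The untreated call ended without cKO replicate 1 or 3 (adjusted p = 0.123 and 0.154) or WT replicate 1, 2 or 3 (0.0616, 0.144 and 0.0908). Tnfsf11 read 53.9, 51.3 and 35.0 CPM in cKO untreated skin, against 20.5, 24.6 and 29.9 CPM in WT untreated skin, groups apart but not called by edgeR (0.90 ± 0.23, adjusted p = 0.0845), while DESeq2 called it (adjusted p = 0.0133).

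The promoter windows of Tnfsf8 and Tnfsf10, the genes of the CD30 ligand and TRAIL, are shown for the ROR core AGGTCA, since Rora is the floxed gene. The Tnfsf8 window, chr4:63861235-63861534 on the minus strand, holds none of the 3 motifs, and the Tnfsf10 window, chr3:27316827-27317126 on the plus strand, holds 1 AGGTCA on its reverse strand, in capitals.
Tnfsf8: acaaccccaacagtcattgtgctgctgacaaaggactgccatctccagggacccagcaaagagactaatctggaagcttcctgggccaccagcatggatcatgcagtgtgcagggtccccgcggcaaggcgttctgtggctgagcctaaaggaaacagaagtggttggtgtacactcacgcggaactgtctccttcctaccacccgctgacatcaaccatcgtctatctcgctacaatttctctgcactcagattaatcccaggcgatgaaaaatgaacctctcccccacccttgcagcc
Tnfsf10: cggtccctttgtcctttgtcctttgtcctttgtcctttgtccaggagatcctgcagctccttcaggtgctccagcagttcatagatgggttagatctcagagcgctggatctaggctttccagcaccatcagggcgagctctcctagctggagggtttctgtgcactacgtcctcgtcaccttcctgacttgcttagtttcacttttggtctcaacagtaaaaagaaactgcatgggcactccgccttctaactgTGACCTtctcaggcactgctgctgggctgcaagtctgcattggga
Since 16.3% of all windows hold AGGTCA, this match describes the sequence only.

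Averaged over treatments, Fasl rose by 1.02 ± 0.23 (adjusted p = 0.0293), with 28.8, 21.1 and 17 CPM in cKO against 12.1, 8.53 and 15.9 CPM in WT untreated skin, and 9.38, 10.6 and 10.1 CPM in cKO against 2.47, 4.16 and 6.72 CPM in WT MC903-treated skin. Tnfrsf23 rose by 0.73 ± 0.16 (adjusted p = 0.0275), with 13, 13.2 and 13.3 CPM in cKO against 7.61, 7.03 and 8.02 CPM in WT untreated skin, and 22.4, 22.2 and 23.2 CPM in cKO against 16.9, 9.88 and 16.0 CPM in WT MC903-treated skin. Both genes had groups apart under each treatment. Tnfsf14 fell by 1.05 on the log2 scale (SE 0.24, adjusted p = 0.035), with 3.09, 2.59 and 1.91 CPM in cKO against 4.02, 3.14 and 4.74 CPM in WT untreated skin, and 0.908, 1.26 and 0.715 CPM in cKO against 2.43, 2.41 and 3.07 CPM in WT MC903-treated skin. LIGHT transcript was thus the 1 ligand lower in every cKO library than in any WT library of the same treatment.

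The averaged calls of these 3 genes each ended without any of several libraries. The Fasl call did so without cKO untreated replicate 1 or 2, WT untreated replicate 1 or 2, any cKO MC903-treated library, or WT MC903-treated replicate 1 or 2 (adjusted p = 0.0553 to 0.0935). For Tnfrsf23 these were any cKO untreated library, WT untreated replicate 1 or 2, any cKO MC903-treated library, or WT MC903-treated replicate 2 (adjusted p = 0.053 to 0.0782). For Tnfsf14 they were cKO untreated replicate 2 or 3, WT untreated replicate 1 or 3, cKO MC903-treated replicate 1 or 3, or any WT MC903-treated library (adjusted p = 0.0573 to 0.1). Tnfsf13b was called lower in cKO untreated skin (adjusted p = 0.0468), at 0 in all 3 cKO libraries against 0.142, 0.929 and 0.754 CPM in WT. Pooled over the WT libraries it read 0.61 CPM, 14.7-fold above a floor of 3 counts over the cKO libraries. That ratio leaves out the spread of the WT libraries, which held 3 to 21 counts. The gene was highest in WT LN, at 103 to 143 counts per library. That call ended without any 1 cKO untreated library (adjusted p = 0.12 to 0.154) and without WT untreated replicate 2 (0.108) or 3 (0.091).

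**Figure D4:**
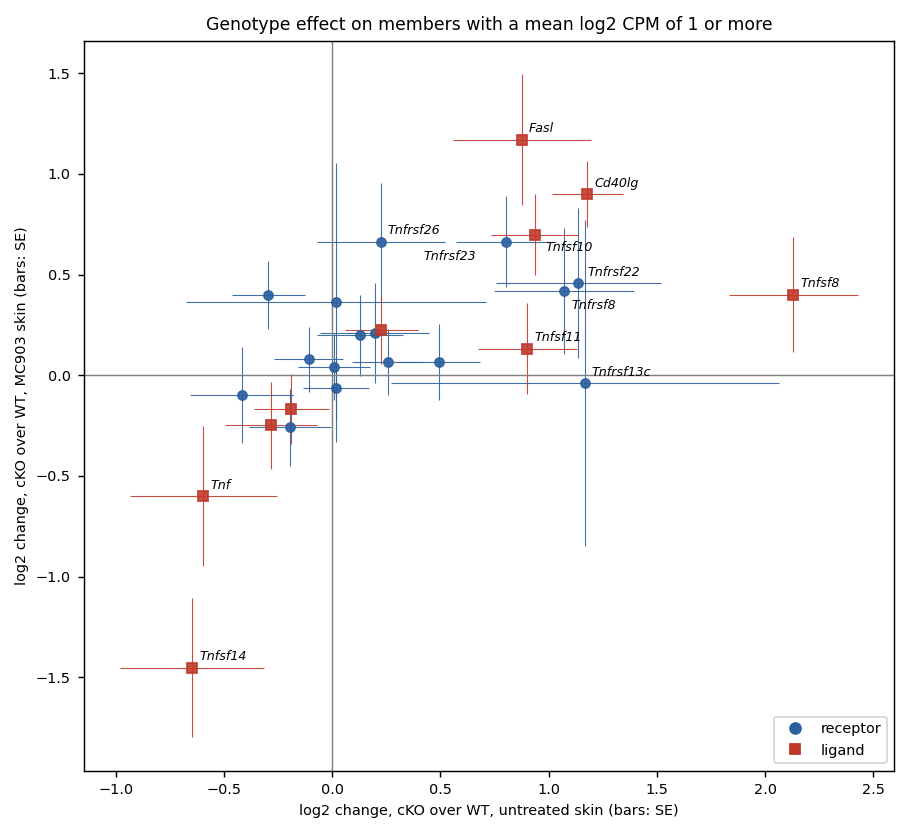
The log2 change in cKO over WT Tregs of untreated skin (x axis) and MC903-treated skin (y axis), with SE bars, for the 26 members with a mean log2 CPM of 1 or more, 16 receptors (circles) and 10 ligands (squares). Cd40lg lies at 1.18 and 0.90, Tnfsf8 at 2.13 and 0.40 and Tnfsf14 at -0.65 and -1.45, while Tnfrsf4, Tnfrsf18 and Tnfrsf9 lie near 0 on both axes.

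The 2 genotype comparisons share no library. Across both, 21 of 36 members had a positive log2 change in each, 7 a negative one in each and 8 opposite signs. Of all 13578 genes tested, 3618 (26.6%) were positive in each, 3898 negative in each and 6051 of opposite signs. Most of these changes were not called. The costimulatory receptors that were higher in skin than in LN were not called between genotypes, with log2 changes in untreated and MC903-treated skin of 0.02 ± 0.15 and -0.06 ± 0.15 for Tnfrsf4, 0.01 ± 0.17 and 0.04 ± 0.17 for Tnfrsf18, 0.26 ± 0.16 and 0.06 ± 0.16 for Tnfrsf9, and -0.20 ± 0.19 and -0.26 ± 0.19 for Tnfrsf1b. Of the 40 signalling genes edgeR called 0 in either treatment, and DESeq2 called 0 in either. In edgeR 10 in untreated and 6 in MC903-treated skin had an unadjusted p under 0.05, beside 1560 and 917 of the 13578 genes tested. Averaged over treatments, edgeR called 0 of the signalling genes and DESeq2 called 2 higher in cKO. Summed markers of other lymphocytes (NK, innate lymphoid, CD8 and gamma-delta T cells) were higher in cKO than in WT untreated skin. In MC903-treated skin these lymphocyte sums overlapped between genotypes. The 7 such markers in the table summed to 18.3 to 29.4 CPM in cKO against 12.6 to 14.2 CPM in WT untreated skin, and to 20.2 to 24.8 CPM in cKO against 10.7 to 20.4 CPM in WT MC903-treated skin. Most of it was Cd8b1, at 11 to 21.2 CPM in cKO and 8.73 to 17.6 CPM in WT skin, while Ncr1 was at 0 in every skin library. Macrophage, dendritic and Langerhans cell markers summed to 388 to 503 CPM in cKO against 330 to 339 CPM in WT MC903-treated skin, and overlapped in untreated skin. Mast cell, basophil and granulocyte markers summed to 11.8 to 18.8 CPM in cKO against 19.4 to 27.4 CPM in WT untreated skin, and overlapped in MC903-treated skin. Sums of keratinocyte, B cell, and fibroblast with endothelium markers overlapped under each treatment. The part of these cells in the genotype results was not tested.

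The difference between the MC903 effects in cKO and in WT was called for 0 members by edgeR, as for 0% of all genes. At an unadjusted p under 0.05 in edgeR it had 2 members higher and 2 lower, beside 765 of the 13578 genes tested. DESeq2 called 1 of each, Tnfsf13b and Tnfsf8. Tnfsf8 had an interaction of -1.73 ± 0.41 (unadjusted p = 0.000663, adjusted p = 0.643 in edgeR, and adjusted p = 0.0254 in DESeq2). Its MC903 change was -0.11 ± 0.28 in cKO and 1.62 ± 0.29 in WT. Cd27 had an interaction of 0.70 ± 0.24 and Tnfsf11 one of -0.77 ± 0.32, neither called.

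**Figure D5:**
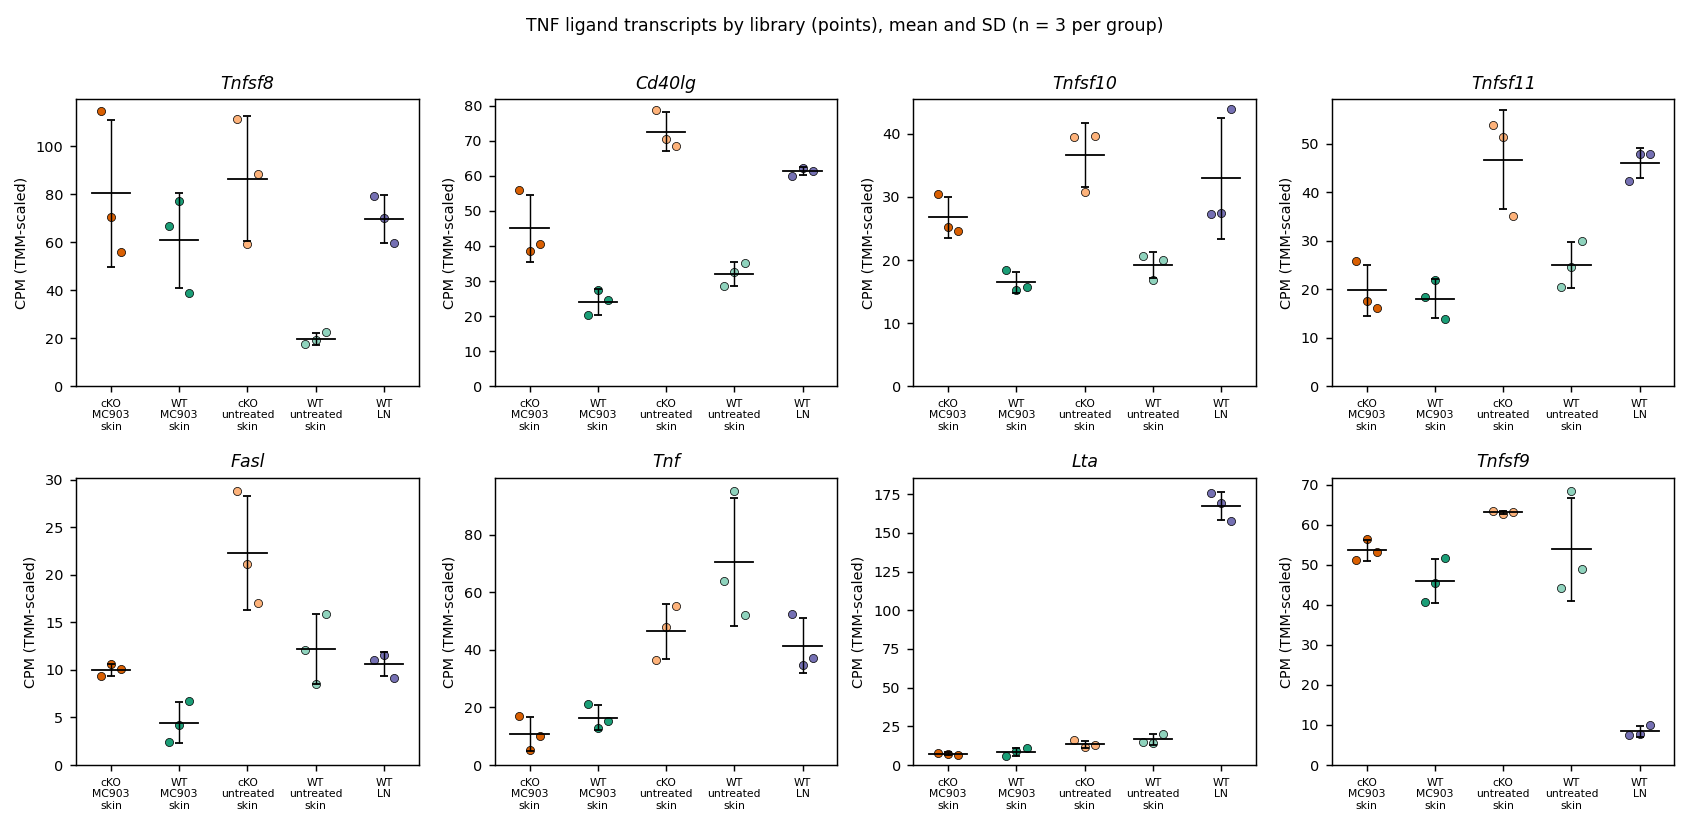
Levels of 8 TNF ligand transcripts in CPM (TMM-scaled) in each library, with points for libraries, a line for the mean and bars for the SD of 3 libraries per group. Tnfsf8 stands low in WT untreated skin at 17.5 to 22.4 CPM, Cd40lg is higher in cKO than in WT skin under both treatments, Tnf is lowest in MC903-treated skin, Lta is highest in WT LN and Tnfsf9 is lowest there.

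The members outside these comparisons were low. Of the 8 that did not pass the filter, Tnfsf13 (the gene of APRIL) and its readthrough with Tnfsf12 were at 0 in every library, which allows up to 0.0941 to 0.162 CPM per library at 3 counts, an allowance for counting error only. Tnfrsf17, Edar, Ngfr, Eda2r, Tnfrsf19 and Tnfsf18 reached at most 1.45 CPM in any library. Among the tested ones that the edgeR fit of all 15 libraries called in no comparison were Ltbr, at 0 to 5.82 CPM over all libraries, Cd70 at 0 to 2.63 CPM, Tnfrsf11a at 0 to 2.20 CPM, Tnfsf15, the ligand gene of DR3, at 0 to 2.37 CPM, and Tnfsf12, the TWEAK gene, at 0 to 0.69 CPM. DESeq2 called Ltbr higher in WT MC903-treated skin than in WT LN (2.42 ± 1.02, adjusted p = 0.0357), as did edgeR without LN replicate 3 (3.39 ± 1.31, adjusted p = 0.0474). It also called Tnfsf15 lower with MC903 in cKO (-3.98 ± 1.42, adjusted p = 0.0349). Tnfrsf11b, the gene of the soluble RANK ligand decoy osteoprotegerin, came from 4 libraries, with 2.36 CPM in WT untreated replicate 1 its highest level, and was 0 in the other 11.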

How the data were processed

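Libraries were made with SMART-Seq v4 and read as 75 bp single-end reads, per the labels' protocols. The submitters' processing notes name TopHat2 2.0.6, DESeq2 and the build mm9. The counting tool and its annotation are not given in the sources used here. The authors deposited whole-number counts per gene and library. The authors' deposited table of LN against skin holds, per the file headers, a mean signal after normalisation, the log2 fold change and its SE, their ratio as a score, and a p-value raw and adjusted.

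From the counts, genes were kept by filterByExpr (13578 of 24015), libraries scaled by TMM (factors 0.903 to 1.26), and 1 model fitted to all 15 libraries with edgeR 4.0.16 in R 4.3.3, by the robust quasi-likelihood test with Benjamini-Hochberg adjustment. The script was tested on simulated counts. DESeq2 1.42.0 was an alternative. Reads carry no molecular identifiers, so floors cover counting error only. Lengths are those of the longest GENCODE vM21 coding transcript.

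The members, gene lists and tests were chosen with earlier results of these data known. Genes named are those called between genotypes or treatments, the 10 called members with the largest change in each direction between skin and LN, given a mean log2 CPM no lower than 1, and a fixed set of receptor and ligand pairs. No 2 libraries held identical values. Same-numbered libraries of different groups did not deviate together, so replicate numbers were not taken as pairs.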

Additional observations from a re-analysis of the deposited data

How the results depend on the processing

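The alternatives were DESeq2, relative log expression factors, no filter on low counts, a replicate block, a fit of the compared groups alone, each library left out in turn and, added after seeing the data, leaving out the 3 libraries richest in fibroblast and endothelial transcript (cKO MC903-treated replicate 3, WT MC903-treated replicate 3 and cKO untreated replicate 1). Of 80 calls of members, 60 held in every alternative run in which the gene was tested. These included all 23 of MC903-treated WT skin against LN and 20 of 23 of untreated WT skin against LN, which share the LN libraries. Fewer held elsewhere. Of the MC903 calls, 6 of 10 held in WT and 7 of 13 in cKO. Of the genotype calls, 2 of 4 held in untreated skin, 0 of 1 in MC903-treated skin and 2 of 6 averaged over treatments. Over 994 alternative values of these calls, 886 kept the call, 108 lost it and 0 changed direction.

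With the replicate block, members called lower in cKO untreated skin fell to 0, as did those higher in cKO MC903-treated skin and those lower in the averaged genotype effect. With only the compared groups in the fit these 3 counts were 0 too, and the MC903 effect in WT had 3 higher and 3 lower. Without the 3 libraries named above the same 3 counts were 0, the averaged effect had 2 higher, the MC903 effect had 4 lower in cKO and 3 higher in WT, the MC903 falls of Lta and Fasl in cKO had adjusted p of 0.091 and 0.11, and the averaged Tnfsf10 change had an adjusted p of 0.0678. With no filter 0 were lower in the averaged effect. DESeq2 called 1 lower in cKO MC903-treated skin, and 1 higher and 1 lower for the interaction. Beyond those, it called Tnf (adjusted p = 0.0318) and Tnfsf4 (0.0224) in untreated WT skin against LN, and Tnfrsf8 in the averaged genotype effect (0.0425), which edgeR did not. Leaving out 1 library gave 0 to 1 lower in cKO untreated skin, 0 to 1 higher in cKO MC903-treated skin, 3 to 5 higher and 0 to 1 lower in the averaged effect, 3 to 4 higher and 4 to 8 lower with MC903 in cKO, and 3 to 5 higher with MC903 in WT. Cd40lg in MC903-treated skin had an adjusted p of 0.0633 with the replicate block, and Tnfrsf22 in untreated WT skin against LN one of 0.0521 with the other factors. The cause of these losses was not tested. With 3 libraries per group and a biological coefficient of variation of 37.2%, changes of members under about 1 CPM are poorly determined.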

Other observations

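The neighbouring genes Tnfrsf22, Tnfrsf23 and Tnfrsf26 were low together in 1 WT library. In the cKO MC903-treated libraries they spanned 11.3 to 15.3, 22.2 to 23.2 and 55.8 to 68.8 CPM. WT MC903-treated replicate 2 read 5.57, 9.88 and 18.3 CPM for them, where replicates 1 and 3 read 11.6 and 13.1 CPM for Tnfrsf22, 16.9 and 16.0 CPM for Tnfrsf23, and 50.6 and 48.4 CPM for Tnfrsf26. WT untreated replicate 2 read 2.25 CPM for Tnfrsf22, against 7.80 and 6.19 CPM in replicates 1 and 3, with no such gap in Tnfrsf26. This pattern was noticed after the values were seen, and it was not tested.

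Cd40 had a wide spread within cKO untreated skin, with 5.59, 0.388 and 4.49 CPM in its 3 libraries. Tnfsf8 in cKO skin had a wide spread as well, with a low of 59.4 and a high of 111 CPM in untreated skin, whereas the 3 WT untreated libraries lay within 17.5 to 22.4 CPM.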
